A study of Mus musculus with 29 samples.

Results

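Mg1 is the most numerous of 8 microglial subtypes, Mg1 to Mg8, in the authors' annotation of single cells from mouse brain. Its members are the cells whose deposited parent class is microglia and whose deposited subtype is Mg1: 8519 of 24707 microglia and of 55268 brain cells in all, or 34.5% of microglia. The cells came from 18 brain libraries made by Drop-seq, a method that captures single cells with barcoded beads in droplets. All mice were C57BL/6J. The young groups were males of 8 to 10 weeks, with 4 libraries from day 2 after sham surgery, 4 from day 2 after stroke and 4 from day 14 after stroke. The aged groups were 17 to 20 months old, with 2 sham libraries at day 2 (1 male, 1 female), 3 stroke libraries at day 2 (1 male, 2 female) and 1 female stroke library at day 14. Stroke was a temporary block of the middle cerebral artery. Each library pooled several hemispheres, which were digested with papain in the presence of actinomycin D, an inhibitor of transcription, Brilliant Blue G, an antagonist of the P2X7 receptor, and AP-5, an NMDA receptor blocker, before microglia, CD45high leukocytes and endothelial cells were sorted. All groups share this preparation. No day 14 sham group was analysed here, so both stroke times were set against the same day 2 sham libraries.

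Microglia are the resident macrophages of the brain. In the healthy tissue they express a set of surface receptors and secreted proteins known as homeostatic genes, among them P2ry12, a receptor that senses nucleotides released by damaged cells, Tmem119, a membrane protein of uncertain function, and Cx3cr1, the receptor for neuronal fractalkine. After injury, microglia are known to lower parts of this set and to raise genes of lipid handling, phagocytosis and antigen presentation.

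In the 17 libraries that held Mg1 cells, the median Mg1 cell had fewer counts than the median of all other microglia of the same library in 17 of 17. Summed counts of Mg1 per library were 343751 to 881111 in young sham, 59188 to 80060 at day 2 and 27162 to 69083 at day 14 among libraries with at least 20 Mg1 cells. Young day 2 replicate 3 held 0 Mg1 cells and young day 14 replicate 1 held 8, so gene tests used 3 stroke libraries at each time against 4 sham libraries. Of the 12 young libraries, 5 had a median mitochondrial share under 1% over all cells: sham replicate 1, replicates 1 and 2 of day 2, and replicates 1 and 2 of day 14. Sham replicate 1 also stood apart in single genes of Mg1: Gapdh, a glycolytic enzyme, was at 24.3 CPM (counts per 1e6 counts) there and at 331.6 to 397.2 CPM in the other 3 sham libraries. Cell barcodes were nearly all private to 1 library: 91 of them occurred in more than 1 library, and 27 Mg1 cells carried such a barcode. Nothing in the labels says which libraries came from separate surgeries, so p-values measure the spread between these pooled libraries.

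Mg1 cells held the genes of their microglial label. The authors' names were given from the expression of the same cells, so this is a description and no independent check. In young sham Mg1, P2ry12 was at 3737, 3832, 3308 and 3405 CPM in replicates 1 to 4, and Tmem119 was at 1819, 1369, 1172 and 1139 CPM. The 11 genes of a microglial marker list summed to 27445 to 36026 CPM. Markers of other brain and blood cells were low: the 8 genes of border-associated macrophages summed to 24.7 to 37.1 CPM, with Cd163, Lyve1 and Cd209f at 0, and the 8 endothelial genes summed to 8.84 to 63.8 CPM, with Cldn5 and Flt1 at 0. The 7 T cell genes did not exceed 3.02 CPM. Lists with a higher sum each owed it to 1 gene: Siglech in the dendritic cell list (3366 CPM on average), which microglia also express, Csf3r in the neutrophil list (266.4 CPM), Ighm in the B cell list (217.5 CPM) and Slc1a3 in the astrocyte list (198.7 CPM). Haemoglobin and Alas2 together varied most between libraries, from 0 to 736.0 CPM in young sham and from 0 to 4760 CPM in young day 14.

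Mg1 was set against the other subtypes as a description with no test, because the subtypes were named from the expression of the same cells. Mg1 and Mg2 were close in homeostatic genes and far apart in early response genes. The young sham means that follow are over the libraries with at least 20 cells of the subtype. These were 4 for Mg1 and Mg2, 1 for Mg7, and 2 or 3 for the others. In young sham, P2ry12 averaged 3570 CPM in Mg1, 3346 in Mg2, 2954 in Mg8, 2411 in Mg6, 2396 in Mg3, 2248 in Mg5, 2083 in Mg7 and 1694 in Mg4. Within libraries that held at least 20 cells of both subtypes, P2ry12 was higher in Mg1 than in Mg2 in 8 of 11, than in Mg3 in 12 of 12 and than in Mg4 in 10 of 10. Tmem119 averaged 1506 CPM in Mg8, 1375 in Mg1, 1332 in Mg2, 1280 in Mg5, 1052 in Mg6, 886 in Mg3, 877 in Mg4 and 222.7 in Mg7, and it gave the same counts of libraries for Mg2, Mg3 and Mg4. Mg1 was higher than Mg8 in 7 of 11 libraries. Over the 25 genes of the homeostatic list the sum was 89995 CPM in Mg1 and 78346 in Mg2, and Mg1 was the higher in 11 of 11 libraries. Cst3, the protease inhibitor cystatin C and the largest single part of that sum, was higher in Mg1 than in Mg2 in every one of those libraries. Of the 25 genes 2 were higher in Mg1 in all 11 libraries and 0 were lower in all 11. Over 8633 genes of at least 10 CPM these shares were 1.04% and 1.37%.

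Early response genes, most of which encode transcription factors and feedback regulators that cells switch on within minutes of a stimulus, were the main difference between Mg1 and Mg2. The 22 genes of the list summed to 3839, 5825, 8547 and 3004 CPM in Mg1 of young sham replicates 1 to 4, and to 17697, 23985, 32160 and 11071 CPM in Mg2 of the same libraries. Every sham library therefore had the lower sum in Mg1, and the library with the highest sum in Mg1 also had the highest in Mg2. Across the 11 libraries of all groups with both subtypes, the Mg2 sum was 3.43 to 7.24 times the Mg1 sum, with a median of 3.86, and 16 of the 22 genes were lower in Mg1 in all 11, beside 1.37% of the 8633 genes that averaged 10 CPM or more over Mg1 and Mg2. The median Mg1 cell had fewer counts than the median Mg2 cell in all of these libraries but young day 2 replicate 1. Among cells with at least 800 counts the fold was 2.79 to 5.58, with a median of 4.43, in the 8 libraries with at least 20 such cells of each subtype.

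**Figure D1:**
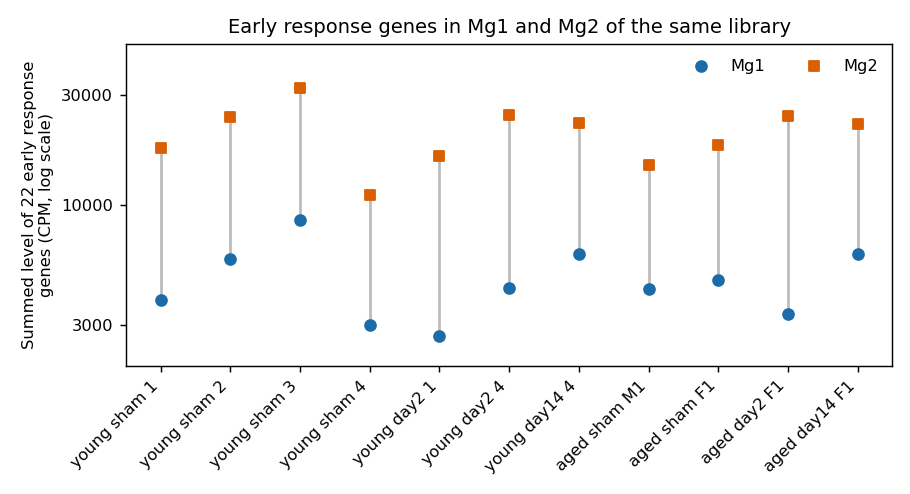
Summed level of the 22 early response genes (CPM, log scale) in Mg1 and Mg2 of the same library, joined by a line, for the 11 libraries with at least 20 cells of both. Libraries are on the x axis. Mg2 (squares) lies above Mg1 (circles) in each, by 3.43 to 7.24 times.

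The single genes followed the sum. Fos, a subunit of the AP-1 transcription factor, was at 116.0, 419.9, 797.4 and 119.7 CPM in Mg1 of sham replicates 1 to 4, and at 1321, 3103, 4220 and 890.3 CPM in Mg2. Jun, its partner, was at 571.7, 1833, 2857 and 824.1 CPM in Mg1 and at 3441, 6499, 8681 and 3018 CPM in Mg2. For both genes the highest Mg1 library lay below the lowest Mg2 library. Atf3, a stress-induced repressor, averaged 109.3 CPM in Mg1 and 1100 CPM in Mg2. Egr1, a zinc finger factor induced by growth signals, averaged 163.1 and 1237 CPM, and Klf2, a Kruppel-like factor, 65.6 and 484.2 CPM. Feedback genes had the same order: Dusp1, a phosphatase that switches off MAP kinases, averaged 113.2 CPM in Mg1 and 658.6 in Mg2, Zfp36, which destabilises cytokine messages, 388.1 and 1634 CPM, and Btg2, an antiproliferative gene, 331.8 and 1423 CPM. Of the 10 genes with the lowest ratio of Mg1 to Mg2, 8 belonged to the early response list, and the other two were Adamts1, a metalloprotease, and Csrnp1, a transcriptional regulator. Of these Adamts1, Csrnp1, Nr4a1 and Klf4 were under the minimum of 50 CPM in Mg1 and entered through Mg2. Mg6 resembled Mg2 in this respect, with a sum of 27560 CPM in young sham, and 19 of the 22 genes were lower in Mg1 than in Mg6 in all 6 libraries with both subtypes, beside 3.28% of 8268 genes. The mean sums in Mg3, Mg4, Mg5 and Mg8 lay between those of Mg1 and Mg2, at 9175, 7075, 7719 and 7838 CPM, beside 5304 CPM in Mg1. They rest on unlike sets of libraries: 2 for Mg3 and for Mg6, and 3 each for Mg4, Mg5 and Mg8. Over its 4 sham libraries Mg1 ran from 3004 to 8547 CPM, a range that holds the means of Mg4, Mg5 and Mg8. Mg7, with 20 cells of sham replicate 4 alone, was at 4056 CPM. That is below the mean of Mg1 but above the 3004 CPM of Mg1 in the same library.

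The promoters of 3 of these genes are shown because factors that induce early genes bind short sites near the start. Each is the 250 bases before the RefSeq start on mouse assembly GRCm38.p6, 5′ to 3′ on the gene's strand, with the site in capitals. The capitals mark a cAMP response element, TGACGTCA, in Btg2 (chr1:134079156-134079405, minus strand, 166 bases before the start) and in Dusp1 (chr17:26508473-26508722, minus strand, 143 bases before the start). In Zfp36 (chr7:28379229-28379478, minus strand) they mark a CArG box, the site of serum response factor, 58 bases before the start.
Btg2: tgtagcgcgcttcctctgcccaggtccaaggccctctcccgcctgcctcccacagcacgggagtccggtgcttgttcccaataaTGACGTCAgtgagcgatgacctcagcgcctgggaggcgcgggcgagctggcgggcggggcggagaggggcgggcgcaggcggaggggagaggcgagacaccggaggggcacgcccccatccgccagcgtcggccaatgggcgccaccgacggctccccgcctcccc
Dusp1: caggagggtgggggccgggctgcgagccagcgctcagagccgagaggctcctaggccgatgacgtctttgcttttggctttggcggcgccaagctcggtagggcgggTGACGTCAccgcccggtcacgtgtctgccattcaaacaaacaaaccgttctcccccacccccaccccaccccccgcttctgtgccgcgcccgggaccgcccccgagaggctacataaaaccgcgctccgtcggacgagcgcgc
Zfp36: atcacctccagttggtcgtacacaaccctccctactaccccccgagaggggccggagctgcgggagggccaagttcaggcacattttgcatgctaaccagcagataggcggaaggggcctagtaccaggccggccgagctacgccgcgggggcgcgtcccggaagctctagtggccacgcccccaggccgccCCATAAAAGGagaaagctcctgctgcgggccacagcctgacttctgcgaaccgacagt
Of the 22 list members 18 had an entry, in 24 windows, beside 32851 windows of all genes searched on both strands. TGACGTCA occurred in 3 of the 24 windows, or 12.5%, and in 1.55% of all windows. The CArG box occurred in 20.8% of the list's windows, from 2 genes, and in 1.47% of all. The GC box GGGCGG occurred in 79.2% and 32.7%, and TGANTCA, the site bound by Fos and Jun themselves, in 0 of 24 and in 6.75%. Several windows belong to 1 gene with nearby starts, and these matches only describe the letters of the windows.

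The cytokine and glucocorticoid lists had the same order between Mg1 and Mg2. Among genes of at least 10 CPM, 0 of 14 interferon and 0 of 16 injury-associated genes were lower in Mg1 in all 11 libraries. Over all 8633 such genes the share was 1.37%. The 20 cytokine, chemokine and NF-kB feedback genes summed to 2492 CPM in Mg1 and 7812 CPM in Mg2 in young sham, with Mg1 lower in 11 of 11 libraries over all groups. Nfkbia, the inhibitor of NF-kB, averaged 622.0 and 2181 CPM, and the chemokines Ccl4 and Ccl3 averaged 346.7 and 1181 CPM and 278.2 and 879.7 CPM. Genes that respond to glucocorticoids summed to 1859 and 3145 CPM, also lower in Mg1 in 11 of 11 libraries. In MHC class I, which presents peptides to CD8 T cells, the heavy chains H2-D1 and H2-K1 were lower in Mg1 in 11 of 11 libraries, at 750.8 against 1040 CPM and 510.1 against 892.4 CPM in young sham, while their light chain B2m was lower in none. The 3 C1q chains, which start the classical complement cascade, were higher in Mg1 than in Mg2 in all 11, as were 1.04% of 8633 genes: C1qb averaged 7707 and 6794 CPM in young sham.

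Genes were also ranked by the ratio of Mg1 to the mean of Mg2, Mg3 and Mg4 in young sham, among those with at least 50 CPM on either side. The 10 with the lowest ratio were Spp1, Ifit3b, Apoc1, Ifit2, Ifit3, Lpl, Mx1, Clec7a, Cst7 and Oas1a, of injury-associated activation (the secreted protein osteopontin, Apoc1, lipoprotein lipase, the receptor Dectin-1 and cystatin F) and of the interferon response. All 10 were under 50 CPM in Mg1 and entered through the other side, so that they were lower in Mg1 was fixed by the choice, and Mg3 was 70 cells of 2 libraries. Clec7a averaged 16.7 CPM in Mg1, 688.6 in Mg3 and 105.7 in Mg4. Apoe, the main lipid carrier of the brain, averaged 835.9 CPM in Mg1, 628.5 in Mg2, 4901 in Mg4 and 8612 in Mg3. Mki67, a mark of dividing cells, averaged 0.457 CPM in Mg1 and 104.6 CPM in Mg5. The 10 genes with the highest ratio were all listed at 0 in Mg3 or Mg4, which held 70 and 124 cells in the sham libraries used, and the highest of them in Mg1, Csmd3, was at 69.6 CPM. Against Mg2 alone the highest ratios belonged to Pccb, Eid1 and Ndufaf8, at 73.4 against 44.2, 147.0 against 92.9 and 55.9 against 35.2 CPM.

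**Figure D2:**
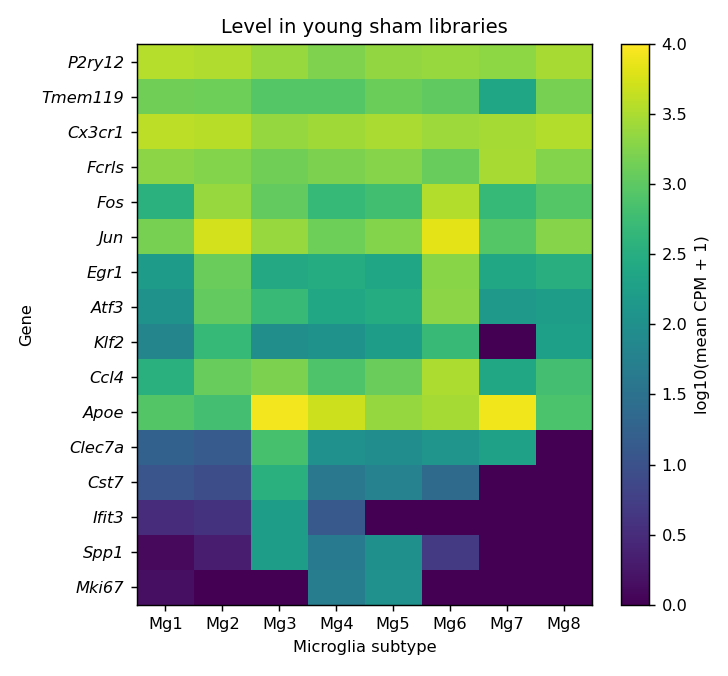
Mean level of selected genes (rows, log10 of CPM + 1) in the 8 microglial subtypes (columns) of young sham. Brighter colours are higher levels. Mg1 and Mg2 look alike for P2ry12 to Fcrls, and Mg1 is darker than Mg2 and Mg6 for Fos, Jun, Egr1, Atf3 and Klf2, and darker than Mg3 for Apoe to Spp1.

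Mg1 made up a smaller share of microglia after stroke than after sham surgery. In young sham it was 56.6%, 42.0%, 42.2% and 71.2% of microglia in replicates 1 to 4. At day 2 after stroke it was 10.8%, 27.4%, 0% and 5.89%, and at day 14 it was 0.885%, 12.6%, 5.26% and 5.94%. No stroke library reached the lowest sham library, and the stroke times overlapped each other. The 0% rests on 58 microglia, where 3 counts would be 5.17%, and the exact interval reaches 6.16%. The exact (Clopper-Pearson) 95% interval of the lowest sham share was 40.3 to 43.7% and that of the highest stroke share was 24.1 to 30.9%, for counting error only.

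The mean share was 53.0 ± 13.9% (SD, n = 4) in sham and 11.04 ± 11.8% (SD, n = 4) at day 2, a difference of -42.0 percentage points. The exact 2-sided permutation test gave p = 0.0286, the smallest that 4 libraries against 4 can give, and 0.0429 after Benjamini-Hochberg adjustment over 3 comparisons. At day 14 the mean was 6.18 ± 4.86% (SD, n = 4), a difference of -46.8 points from sham with the same exact p and adjusted p. Day 14 differed from day 2 by -4.85 points, less than the spread between libraries (exact permutation p = 0.657). Mg1 also fell as a share of all sorted brain cells, from 38.8 ± 13.6% to 2.33 ± 2.40% and 2.31 ± 1.89% (SD, n = 4 each), but leukocytes and endothelial cells were sorted together with microglia, and the sort sets that denominator. Microglia were 72.2%, 17.3% and 35.8% of all cells on average.

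The share was lower after stroke on both sides of the mitochondrial share of 1%. Among the young libraries below it, the share differed from sham by -37.4 points at day 2 and -49.8 points at day 14, with 1 sham library. Among the others the differences were -48.9 and -46.2 points. Among cells with at least 800 counts, they were -36.8 and -38.2 points, with the same exact p. An edgeR test of the cell counts of the 8 subtypes gave log2 changes of -2.21 ± 1.09 (SE, adjusted p = 0.0609) at day 2, which did not pass, and -3.10 ± 1.13 (adjusted p = 0.0152) at day 14. In that test Mg2 fell at both times (adjusted p = 0.0296 and 0.0171), Mg6 fell and Mg4 and Mg5 rose at day 2, and Mg8 fell and Mg3 and Mg7 rose at day 14. A subtype name depends on expression, so a cell whose homeostatic genes had fallen may carry another name, and the share is no count of cells lost.

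**Figure D3:**
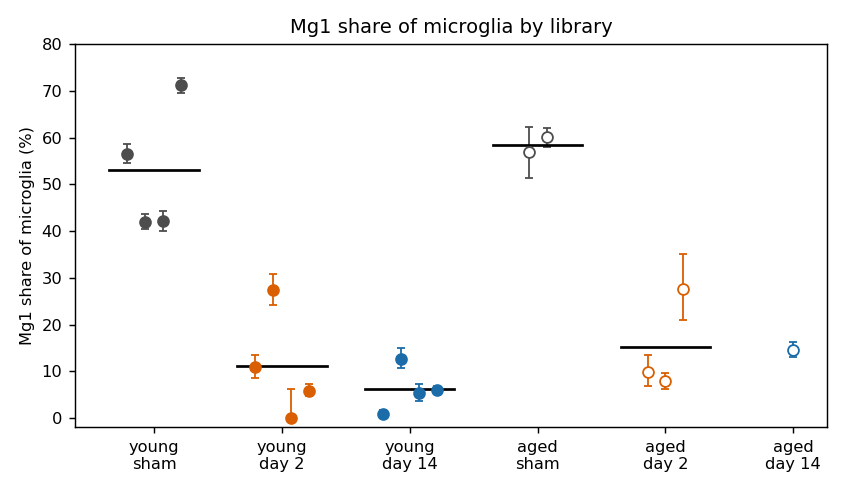
Mg1 as a percentage of all microglia, 1 point per library, with its exact 95% binomial interval (counting error only) and the group mean as a line, by age, surgery and day. Sham points lie between 42.0% and 71.2%, and no stroke point exceeds 27.6%.

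In young mice the cells that still carried the name Mg1 after stroke had levels of P2ry12 and Tmem119 that overlapped those of sham. P2ry12 was at 3128, 3230 and 5589 CPM in day 2 replicates 1, 2 and 4 and at 2283, 5370 and 3280 CPM in day 14 replicates 2, 3 and 4. The sham values, 3308 to 3832 CPM, lay inside both ranges. Its log2 change was 0.24 ± 0.29 (SE) at day 2 and 0.12 ± 0.30 at day 14, with neither called. Tmem119 was at 1398, 1273 and 2699 CPM at day 2 and 1103, 1890 and 1200 CPM at day 14, and its changes of 0.45 ± 0.32 and 0.10 ± 0.33 were not called. Of the 25 homeostatic genes 24 could be tested and edgeR called 0 at either time, with 1 at an unadjusted p under 0.05 at day 2 and 0 at day 14, beside 247 and 111 of all 1691 genes. Over all genes edgeR called 0.118% and 0.177%. Of the 24 homeostatic genes tested, 2 were higher and 1 lower than sham without overlap at day 2, and 1 and 3 at day 14. Over all 1691 genes 98 were higher and 154 lower without overlap at day 2, and 50 and 106 at day 14. DESeq2 called 1 of the list, Tgfbr1, a receptor for TGF-beta, lower at day 2 (-0.78, adjusted p = 0.00687). The median log2 change in the list was 0.30 at day 2 and 0.016 at day 14; for the whole table of 1691 genes it was 0.0063 and -0.0049. Because the subtypes were named from expression, the level of these genes within Mg1 may in part be fixed by the annotation.

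At day 2 edgeR called 2 of 1691 genes, or 0.118%, both higher. Spp1, the gene of osteopontin, a secreted phosphoprotein that activated macrophages make, was at 1.09, 0, 0 and 0 CPM in sham and at 345.5, 313.9 and 497.1 CPM at day 2. The groups were far apart in every library. Of all genes 5.8% were higher at day 2 without overlap. Its log2 change was 9.03 ± 0.80 (SE, adjusted p = 3.85e-05), but sham held about 1 count against 76 at day 2, a ratio of 1044 with a 95% counting interval of 182 to 41789. Ifi27l2a, an interferon-induced gene, was at 25.3, 12.04, 5.96 and 8.48 CPM in sham and at 177.3, 92.1 and 219.1 CPM at day 2, again with no overlap. Its log2 change was 3.52 ± 0.57 (adjusted p = 0.0221), and it missed the threshold in 7 of 20 alternative analyses, with adjusted p up to 0.468 without day 2 replicate 4. Among 1691 genes 247 had an unadjusted p under 0.05.

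At day 14 edgeR called 3 of 1691 genes, or 0.177%, all higher. Apoe was at 1006, 875.0, 703.9 and 758.2 CPM in sham, 1135, 926.4 and 784.5 CPM at day 2, and 10004, 18992 and 5269 CPM at day 14. Every day 14 library lay above every library of the other groups, while sham and day 2 overlapped. The log2 change from sham was 3.89 ± 0.38 (SE, adjusted p = 0.000146). Spp1 was at 70.7, 646.9 and 113.6 CPM (8.28 ± 0.96, adjusted p = 0.000501), or 29 counts against 1, a ratio of 526.5 with a counting interval of 87.3 to 21504. Ifi27l2a was at 190.4, 256.3 and 227.1 CPM (4.04 ± 0.57, adjusted p = 0.00349). Between the stroke times 1 gene of 1691 was called, or 0.0591%: Apoe, higher at day 14 by 3.63 ± 0.43 (adjusted p = 0.00134). Both comparisons with sham use the same sham libraries, so they are not independent.

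**Figure D4:**
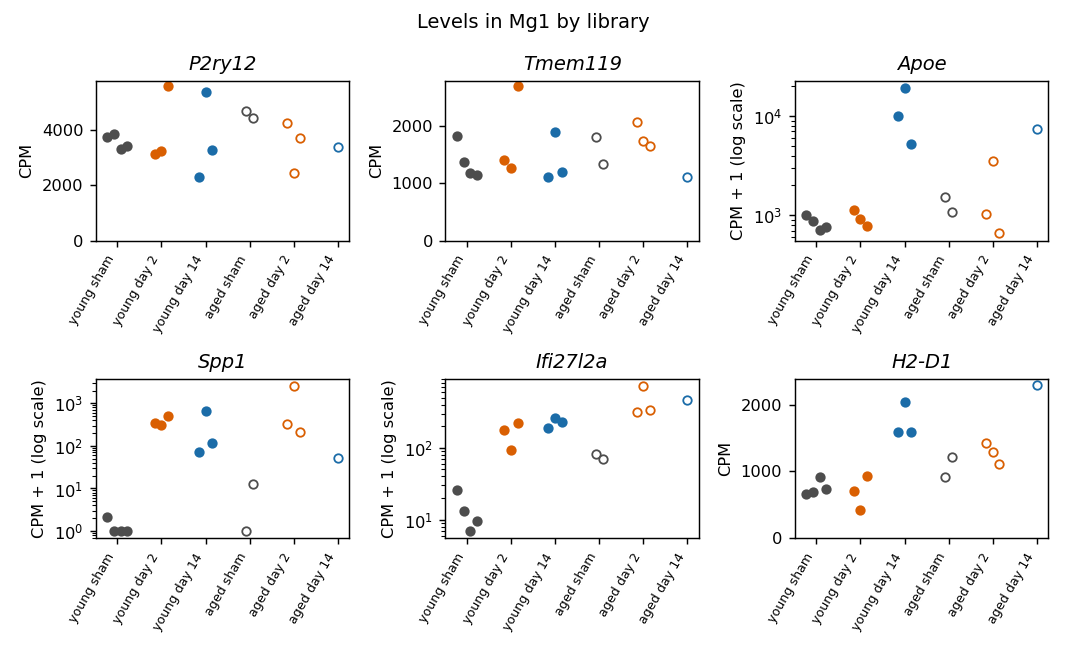
Level of 6 genes in Mg1 by library (CPM, linear for P2ry12, Tmem119 and H2-D1, CPM + 1 on a log scale for the others), young groups filled and aged groups open. Among young groups Apoe is high at day 14 only, Spp1 and Ifi27l2a are high at both times, and P2ry12 and Tmem119 overlap between all young groups.

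Several other cell types held Spp1, Ifi27l2a and Apoe at far higher levels than Mg1 in the same libraries, and the part of free or carried-over RNA in the Mg1 values was not tested. At day 2 Spp1 averaged 23198 CPM in Mg4, 7371 CPM in monocyte-derived cells, 331.2 CPM in Mg2 (2 libraries), 113.1 CPM in T cells and 0 CPM in endothelial cells, beside 385.5 CPM in Mg1. At day 14 it averaged 14713 CPM in monocyte-derived cells, 6924 in Mg3, 0.903 in endothelial cells and 0 in T cells, beside 277.1 in Mg1. Other leukocytes also held it: granulocytes, dendritic cells and B cells averaged 194.6, 252.6 and 216.2 CPM of Spp1 at day 2 and 893.0, 151.9 and 85.6 CPM at day 14. All 4 granulocyte libraries of day 14 held it, at 383.9 to 1337 CPM. Apoe at day 14 averaged 58524 CPM in Mg3, 48839 in monocyte-derived cells, 47326 in border-associated macrophages, 11421 in Mg1, 1003 in endothelial cells and 529.7 in T cells. The 1 day 14 library with at least 20 Mg2 cells, replicate 4, held it at 2845 CPM in Mg2 and 5269 CPM in Mg1. In endothelial cells of sham it averaged 779.8 CPM. Ifi27l2a at day 2 averaged 1789 CPM in monocyte-derived cells, 784.1 in T cells, 162.8 in Mg1 and 46.9 in endothelial cells. In Mg1 the 8 monocyte-derived markers summed to 8.94 to 232.8 CPM at day 2, with Ly6c2 at 0, and to 0 to 21.6 CPM at day 14, with Ly6c2, Ccr2 and Fn1 at 0, against 0 to 34.4 CPM in sham. The highest day 2 library thus lay above every sham library, and the part of such cells in the Mg1 values was not tested. The 8 border-associated macrophage markers summed to at most 45.1 CPM at day 2 and 57.7 CPM at day 14.

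The count of called list members within Mg1 depended on the tool. Of 9 tested genes of injury-associated activation edgeR called 1 at day 2 and 2 at day 14, beside 0.118% and 0.177% of all genes, and 9 of 9 lay above 0 at both times, with medians of 0.91 and 1.12 on the log2 scale. DESeq2, run without edgeR's filter on low counts, called Spp1, Lgals3bp and Cd63 of that list at day 2 and Apoe, Spp1, Cst7, Lpl, Lyz2 and Clec7a at day 14, all higher, beside 16 of 1593 (1%) and 13 of 8909 genes (0.146%) with a DESeq2 adjusted p. Cd9, a tetraspanin, was at 367.9 to 719.1 CPM in sham, 620.7 to 1457 CPM at day 2 and 643.7 to 1403 CPM at day 14, with adjusted p of 0.283 and 0.638. Of the 3 tested interferon genes edgeR called 1 at each time. The list of 12 tested complement and Fc receptor genes had 12 values above 0 at day 2 and the 16 tested lysosomal genes had 16, with medians of 0.45 and 0.47, beside 50.6% of all genes above 0. Of these edgeR called none, with 0 and 4 at an unadjusted p under 0.05 beside 247 of 1691 genes, and DESeq2 called Ctsb, a lysosomal protease, higher at day 2 (0.78, adjusted p = 0.0212). Ctsd, another lysosomal protease, was at 3306 to 6727 CPM in sham and 6221 to 9641 CPM at day 2 (adjusted p = 0.346). Of 12 tested microglial transcription factors 10 lay below 0 at day 2 and 6 at day 14, with none called by edgeR or DESeq2 and 1 at an unadjusted p under 0.05 (edgeR) at each time, beside 247 and 111 of all genes. Mef2a, a MADS box factor, was at 799.7 to 1691 CPM in sham and 590.0 to 723.7 CPM at day 2, without overlap, as were 9.11% of the 1691 genes in that direction, and the change of -0.91 ± 0.32 was not called (adjusted p = 0.283).

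The early response list, which separated Mg1 from Mg2, had no member called by edgeR or DESeq2 within Mg1. Its sum was 3004 to 8547 CPM in sham, 2365 to 4331 CPM at day 2 and 3361 to 6105 CPM at day 14, and all 3 groups overlapped. At day 2 and day 14, edgeR called 0 of 11 tested members, with 2 and 1 at an unadjusted p under 0.05. Over all 1691 genes 247 and 111 were under 0.05, and 0.118% and 0.177% were called. At day 2, 10 of 11 lay below 0, with a median of -0.36, and at day 14, 5 of 11 did, beside 836 and 853 of the 1691. Jun was at 508.3, 279.5 and 873.7 CPM at day 2 (-1.38 ± 0.57, adjusted p = 0.324). Of 8 tested members each, the glucocorticoid-responsive list and the cytokine list had 0 called by edgeR at either time. At an unadjusted p under 0.05 there were 1 and 3 in the first list at day 2 and day 14, and 2 and 1 in the second, beside the same 247 and 111 of 1691. Without overlap with sham, 4 of the first list were lower at day 14 and 0 higher, and 1 of the second was higher at each time. Over all 1691 genes 106 were lower and 50 higher at day 14 without overlap, and 98 were higher at day 2. DESeq2 called the chemokine Ccl12 higher at day 2 (1.52, adjusted p = 0.00209).

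Mki67 was at 0 to 1.83 CPM in Mg1 of sham, 24.4 to 47.9 CPM in the 3 day 2 libraries and 0 CPM at day 14, too low for the edgeR filter, and DESeq2 gave it no adjusted p at day 2. The 18 proliferation genes summed to 408.9 to 623.1 CPM in sham, 584.9 to 1189 CPM at day 2 and 293.0 to 751.9 CPM at day 14, with overlap. Of the list's 3 tested genes edgeR called 0 at either time, with 1 and 0 at an unadjusted p under 0.05 beside 247 and 111 of 1691 genes, and DESeq2 called none.

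The 3 MHC class I genes with the highest level had higher values at day 14 that edgeR did not call. H2-D1 was at 663.6, 691.4, 915.2 and 733.0 CPM in sham, 701.8, 417.6 and 939.0 CPM at day 2, and 1596, 2043 and 1587 CPM at day 14. All day 14 libraries exceeded all others. The change from sham was 1.31 ± 0.28 (adjusted p = 0.128), and DESeq2 called it (adjusted p = 0.000536). H2-K1 (1.01 ± 0.24, adjusted p = 0.203) and B2m (0.94 ± 0.23, adjusted p = 0.213) likewise had no overlap between sham and day 14, and DESeq2 called both. Of all 1691 genes 50, or 2.96%, were higher at day 14 without overlap. Of the 6 tested MHC class I genes edgeR called 0 at either time, with 2 at an unadjusted p under 0.05 at day 2 and 3 at day 14, beside 247 and 111 of 1691. Psmb8, a subunit of the immunoproteasome that cuts the peptides, was at 257.4 to 279.3 CPM at day 14 and 243.0 to 310.4 CPM in sham.

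Sham replicate 1 decided how many genes were called at day 2. Without it edgeR called 100 of 1524 genes, or 6.56%, 40 higher and 60 lower. All 100 had the same sign with every library in, but both fits share every other library, so this was largely fixed in advance. Among list members the higher ones were Spp1, Cd9, Lgals3bp, Cd52 and Lyz2 of injury-associated activation, the interferon genes Ifitm3 and Ifi27l2a, the chemokine Ccl12, Adgrg1, Itgb2, the lysosomal genes Hexa and Grn, Tmsb4x and Pkm, and the lower one was Mef2a. Lgals3bp, a secreted scavenger protein, had a log2 change of 2.01 ± 0.39 without that library (adjusted p = 0.0150) and 1.63 with it (adjusted p = 0.252). Ifitm3, a restriction factor for viruses, was at 27.8 CPM in sham replicate 1 and at 0 in the other 3 sham libraries. Without that library every sham library left had a median mitochondrial share above 1%, while day 2 replicates 1 and 2 were under 1%. Stroke and this grouping can therefore not be told fully apart in these calls, and the part of the grouping was not tested. At day 14 leaving out any 1 library left 3 to 5 calls.

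The other microglia of the same libraries changed in many more genes. To bring summed counts closer, those of all microglia other than Mg1 were thinned to the Mg1 total of each library where they exceeded it. In sham replicate 4 they fell short of it and stayed unthinned, because Mg1 held 847335 of the 1509023 counts of all cells. Summed counts were therefore not equal in every library. Numbers of cells and counts per cell were not matched. The same test then called 822 of 1770 genes at day 2 (46.4%), 318 at day 14 (18%) and 58 between the stroke times (3.28%). Among the 664 genes called there at day 2 and tested in both, the median size of the log2 change was 1.31 in the other microglia and 0.48 in Mg1, and 2 were called in Mg1. For the 260 genes at day 14 the medians were 1.35 and 0.38, with 3 called in Mg1. These genes were chosen for their change in the other microglia, and the other microglia include subtypes whose shares differ between groups, so the contrast describes the annotation as well as the cells. In the other microglia P2ry12 fell by 1.80 at day 2 (adjusted p = 0.000342) and by 1.51 at day 14 (adjusted p = 0.00248), Cx3cr1 fell by 1.22 and 0.96 (adjusted p = 0.00458 and 0.0322), and Apoe rose by 5.82 at day 14 (adjusted p = 1.06e-06). The difference between Mg1 and the other microglia was not itself tested.

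**Figure D5:**
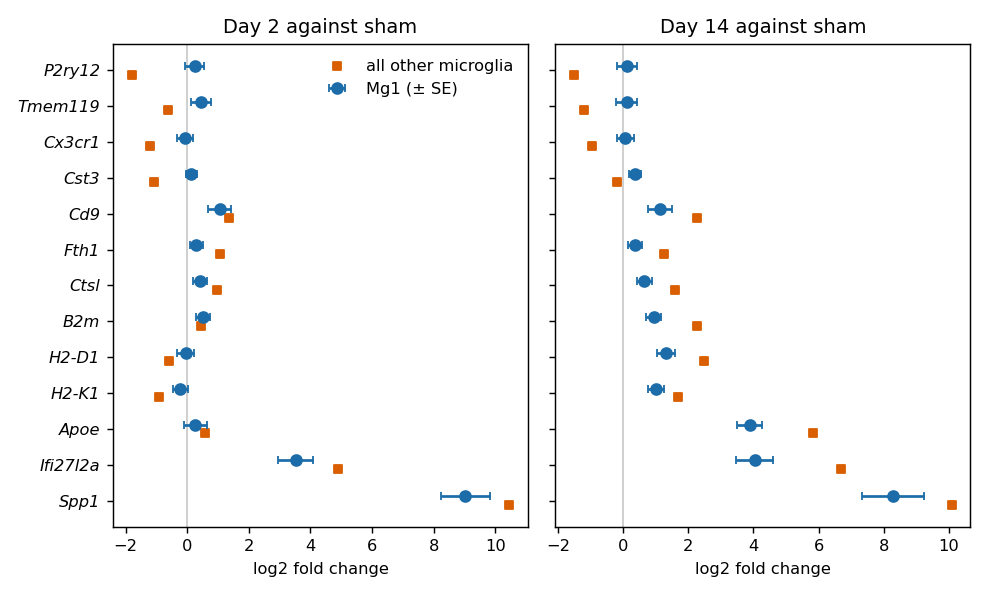
Log2 change from young sham for selected genes at day 2 and day 14 in Mg1 (with SE) and in all other microglia. The other microglia were thinned to the Mg1 total of a library where they exceeded it. P2ry12 lies near 0 in Mg1 and at -1.80 and -1.51 in the other microglia, and Apoe at day 14 is at 3.89 and 5.82.

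In aged mice Mg1 was 56.8% of microglia in sham of the male and 60.04% in sham of the female library. At day 2 after stroke it was 9.82% in the male library and 7.85% and 27.6% in the female libraries, and at day 14 it was 14.6%. No aged stroke library reached a sham library, and the day 2 mean of 15.1 ± 10.9% (SD, n = 3) lay within the spread of the young day 2 libraries. With 2 sham libraries no share test was made. Age cannot be told apart here from the version of the gene table, and the young mice were all male. With sex as a covariate edgeR called 1 gene in aged mice, Spp1, and 0 for the difference of age.

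In aged Mg1 edgeR called 1 of 3381 genes at day 2, or 0.0296%: Spp1, at 0 CPM in the male and 11.8 CPM in the female sham library and at 332.1 CPM in the male and 2552 and 213.2 CPM in the female stroke libraries (6.52 ± 0.89, adjusted p = 0.00287). The call was lost without the female sham library (adjusted p = 0.0958), and the log2 change was 4.61 (adjusted p = 0.0300) without the stroke library at 2552 CPM. At unadjusted p under 0.05 there were 235 genes. Endothelial cells of the aged day 2 libraries held Spp1 at 0 to 171.1 CPM. No gene passed the test for a difference of the day 2 response between aged and young mice: edgeR called 0 of 3381 (0%), DESeq2 called 0, and 131 genes had an unadjusted p under 0.05. In that test 22 of 25 homeostatic genes had the lower change in aged mice, with a median difference of -0.58, beside 1948 of 3381 genes and a median of -0.13 over all genes. The homeostatic genes of aged Mg1 summed to 104930 and 99671 CPM in sham and to 77713, 58810 and 76933 CPM at day 2, without overlap. Of the 25 genes 23 lay below 0 in aged mice, with a median of -0.47, beside 1920 of 3381 genes and a median of -0.12. EdgeR called 0 of them, with 4 at an unadjusted p under 0.05 beside 235 of 3381. Cst3, the largest part of the sum, was at 60741 and 55431 CPM in aged sham and at 37967, 26813 and 33988 CPM at day 2 (-1.04 ± 0.23, adjusted p = 0.242), and P2ry12 at 4666 and 4410 CPM and at 4237, 2436 and 3685 CPM (-0.62 ± 0.30, adjusted p = 0.725). Apoe was at 1526 and 1084 CPM in aged sham, at 658.4 to 3518 CPM at aged day 2 and at 7464 CPM in the 1 aged day 14 library, and Ifi27l2a at 81.8 and 68.5 CPM, 312.8 to 722.9 CPM and 453.9 CPM. The aged day 14 values have no replicate check.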

How the data were processed

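The deposited files hold, per the file headers, 1 table of genes by cells for each library and a cell table with the authors' subtype names. Gene values are fractional, so the authors' deposited unit was taken to be expected counts; which step made the fractions is not given in the sources used here. The authors also deposited the count of genes detected and the percent of mitochondrial counts per cell. The submitters' processing notes name Seurat and mm10. No further filter on cells was applied. A doublet caller (in Scanpy 1.11.5) marked too few cells to be of use, so no doublets were removed.

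Expected counts of Mg1 cells were summed per library, rounded and tested with edgeR 4.0.16 (quasi-likelihood, TMM, filterByExpr, R 4.3.3) in libraries with at least 20 Mg1 cells, and a gene was called at an adjusted p under 0.05 (Benjamini-Hochberg over all genes tested). The 3 young groups shared 1 fit, and the aged comparison used the 4 day 2 and sham groups. Levels are CPM of the summed counts, and summed counts under 0.01 were set to 0. Shares were compared by exact permutation over libraries. DESeq2 1.42.0, other filters and leaving out each library were alternatives. Scripts were tested on simulated data.

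Named genes were the 10 most changed called genes in each direction with a mean of at least 20 CPM, no overlap between groups and no other cell type of at least 500 cells above 10 times the Mg1 level, the 4 highest members of each list, P2ry12 and Tmem119. Only Apoe between the stroke times met the first part. Spp1, Ifi27l2a and Apoe against sham fell outside it and, like the genes named for DESeq2 calls, Mki67 and the genes named without sham replicate 1, were chosen after their values were seen. For subtypes, the 10 highest and lowest ratios among genes with at least 50 CPM were named. The design listed subtypes Mg1 to Mg4; the files hold Mg1 to Mg8, and the others, like Mg1 against Mg2 alone, were added. The members and lists were chosen with earlier results of these data known.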

Additional observations from a re-analysis of the deposited data

Results flagged for a closer look

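In 4 genes a single library of Mg1 lay far from the other 3 of its group. In young sham, Spp1 was at 1.09 CPM, Ifitm3 at 27.8 CPM, Cd74 (the invariant chain of MHC class II) at 47.4 CPM and H2-Ab1 (an MHC class II beta chain) at 24.4 CPM in replicate 1, and each was listed at 0 in replicates 2, 3 and 4. The gap was above Dixon's 95% critical value of 0.829 for 4 samples, but with the others at 0 the ratio is at its maximum whatever the fourth value, so it says nothing of the size of the gap. In all, 66 groups of values were checked, and chance gives about 1 in 20. Sham replicate 1 is also the only young sham library with a median mitochondrial share under 1%. H2-Ab1 was above 0 in the other 3 such young libraries too, at 92.5 and 44.2 CPM in day 2 replicates 1 and 2 and 21.8 CPM in day 14 replicate 2, and at 0 in the 6 other young libraries tested. Cd74 was above 0 in all 4 and, at 23.1 CPM, in 1 of the 6, day 2 replicate 4. In aged sham, at a mitochondrial share above 1%, H2-Ab1 was at 46.6 and 23.7 CPM. Whether these libraries were aligned or counted in another way is not given in the sources used here, and its part in these values was not tested. Spp1 rests on about 1 count there.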

How the results depend on the processing

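The fall of the Mg1 share from sham kept its direction under every alternative run. Leaving out each library gave -47.4 to -35.9 points at day 2 and -50.5 to -40.7 points at day 14, with the exact permutation p at 0.0571, the smallest that 3 libraries against 4 allow. With only libraries of at least 100 microglia, day 2 gave -38.3 points and day 14 -46.8 points (adjusted p = 0.0857 for both). The edgeR test of cell counts gave a log2 change of -2.21 at day 2 (adjusted p = 0.0609), and with the replicate number as a block it gave -2.74 (adjusted p = 0.0601). With the mitochondrial grouping as a term it gave -2.80 (adjusted p = 0.0461), which passed. Day 14 against day 2 was -8.53 to 0.61 points with each library left out (0.61 without day 2 replicate 2) and 2.66 points among libraries with a mitochondrial share of at least 1%.

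Counts of genes depended on the tool and filter. DESeq2 called 16, 13 and 2 genes at day 2, at day 14 and between them, and 4 in aged mice. With no filter on low counts edgeR called 167, 189, 8 and 17, and 2 for the difference of age. Among cells of at least 800 counts it called 76 at day 14, of which 70 were predicted genes or pseudogenes by name, and 7 between the times, with 1 day 14 library left. At day 2 it called 1 in libraries of at least 50 Mg1 cells, 1 without the 5% of Mg1 cells with the highest totals and 1 with the replicate block. With only the compared groups it called 5 at day 14 and 3 in aged mice. Leaving out each library gave 1 to 100 at day 2, 3 to 5 at day 14, 1 to 1 between the times, 0 to 1 in aged mice (0 without the aged female sham library) and 0 to 0 for the difference of age. Spp1 kept its day 2 call under every alternative. Spp1 and Apoe kept their day 14 calls under each alternative with more than 1 day 14 library. Cells of at least 800 counts leave 1 such library, which says nothing of stability, with log2 changes from sham of 5.86 for Spp1 and 3.89 for Apoe. Ifi27l2a had an adjusted p of 0.0706 at day 14 in that setting.

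Uncalled genes near 0 changed sign. With no filter, day 2 gave -0.063 for Apoe and -0.081 for P2ry12, and day 14 gave -0.27 for both P2ry12 and Tmem119. At day 14 P2ry12 was -0.013 without TMM, -0.59 in cells of at least 800 counts, -0.27 in libraries of at least 50 Mg1 cells and -0.0025 with the replicate block, and Tmem119 was -0.032, -0.31 and -0.16 under the first 3. H2-D1 at day 2 was 0.22 in cells of at least 800 counts, 0.037 with the mitochondrial grouping as a term and 0.013 with the replicate block. With each library left out, P2ry12 was -0.11 to 0.34 at day 2 and -0.27 to 0.33 at day 14, Tmem119 -0.16 to 0.26 at day 14 and H2-D1 -0.37 to 0.18 at day 2. The causes were not tested.

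Replicate numbers are not stated to mark shared animals or days. Same-numbered libraries had correlations of deviations from -0.24 to 0.39, 2 of 8 above 0.1. The deviations are from means of few libraries, so they cannot decide whether such libraries share more than a number. The alternatives on the highest totals and on the mitochondrial grouping were chosen after seeing the data. Removing called doublets was not run, and cells of at least 800 counts gave no value in aged mice. The low totals of Mg1 after stroke limit the gene tests: 1691 genes passed the filter on low counts.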
